A study of Homo sapiens with 36 samples.

Results

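The comparison described here set 4 KO libraries against 4 WT libraries of uninduced H9 cells, 8 of the 36 libraries of the series, chosen by their titles. H9 is a human embryonic stem cell line. The KO cells carry the label RAI1 Knockout, and all groups were made for doxycycline-dependent expression of NGN2, the neurogenic factor that NEUROG2 encodes; day 0 (D0) is the sampling before that induction. Total RNA depleted of ribosomal RNA was sequenced, and the series also holds day 3 and day 7 libraries and a further genotype, HET, with 4 libraries in each group. The 4 HET libraries of day 0 entered the fit and are given beside the KO values. The labels call the 4 samples of a group biological replicates without saying whether a genotype is 1 clone or several or whether the samples were separate cultures, so p-values measure only the spread between these samples, which may be technical. The labels call every sample an iNeuron, although the day 0 cells had not been induced.

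RAI1 encodes a nuclear protein that binds nucleosomes and takes part in transcriptional control, and loss of 1 copy underlies Smith-Magenis syndrome. Human pluripotent stem cells hold their state through POU5F1, SOX2 and NANOG under FGF and activin signals, while BMP and WNT signals move them towards other fates. Neurons made from such cells by NGN2 lose the stem cell programme over days.

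Library totals were 31.1 to 40.1 M counts in WT and 27.2 to 34.6 M in KO. RAI1 was at 23.7, 43.1, 42.1 and 34.4 CPM (counts scaled to a common library size by edgeR's TMM method) in the WT libraries and at 25.7, 51.1, 53.5 and 32 in KO. The groups overlapped, and edgeR gave a difference of 0.18 log2 (SE 0.25, adjusted p 0.873). A count over the whole gene does not see a small deletion or frameshift, and the position of the edit is not given in the sources used here, so the level neither checks nor contradicts the label. Libraries of KO and WT with the same replicate number deviated together across genes, and a second fit of the 12 day 0 libraries took the replicate number as a block. HET replicate 1 did not deviate with replicate 1 of KO or WT.

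The stem cell label was checked against its markers. Deposited TPM (a level per transcript length, scaled to a common sum per library) summed over 7 pluripotency markers lay between 767 and 1175 in WT and between 645 and 1775 in KO, and none of the 7 was called. SOX2 was at 229, 175, 205 and 206 CPM in WT and at 186, 199, 204 and 220 in KO. Of 20 primed pluripotency genes tested, edgeR and DESeq2 called 0 and 1 was under an unadjusted p of 0.05, with a median difference of 0.20 log2 where the median of all genes tested was 0.01. ZFP42, a pluripotency-associated zinc finger gene, was at 14.1, 0.0998, 0.0254 and 0 CPM in WT and at 81.9, 20.1, 19.5 and 35.5 in KO. It was called with the block (adjusted p 0.0498) but not in the main edgeR fit (0.212). ZFP42 was also called without WT replicate 1 and with limma on TPM. Summed neuron markers were at 84.7 to 159 TPM in WT and 106 to 201 in KO, neural progenitor markers at 24.3 to 58.4 and 20 to 111, and mesenchyme markers at 34.6 to 161 and 34.3 to 203. Of 6 mesoderm or endoderm markers SOX17 and GATA4, and of 6 trophoblast or amnion markers HAND1 and CGA, were at or under 3 counts in all 8 libraries. EOMES, a mesendoderm factor, was at 0.176, 0.749, 0.178 and 0.128 CPM in WT and at 1.29, 1.78, 1.55 and 0.686 in KO (adjusted p 0.0889 without and 0.022 with the block). FOXA2 reached 2.81 CPM in KO replicate 1 and lay at or under 0.256 in the other 7 libraries (adjusted p 0.366 and 0.407).

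Of 20437 genes tested, 425 (2.08%) passed an edgeR adjusted p of 0.05: 340 higher in KO (1.66%) and 85 lower (0.416%). With the replicate block 960 genes passed (4.7%), 724 higher (3.54%) and 236 lower (1.15%), and 423 of the 425 were among them. Most calls were graded: 44 genes went from at most 3 counts in every WT library to expression in KO and 9 the reverse, whereas 372 were measured on both sides. The 296 graded rises had a median of 1.36 log2 and the 76 graded falls a median of -0.92, and the KO and WT libraries did not overlap at 370 of the 372. These genes were called on the same libraries, so the lack of overlap follows largely from the selection and is no separate support. Over all genes tested, the 4 KO libraries lay wholly above the 4 WT libraries at 5.17% and wholly below at 3.56%. Calls in both directions depended on single libraries, with 235 higher and 54 lower left when WT replicate 3 was omitted.

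**Figure D1:**
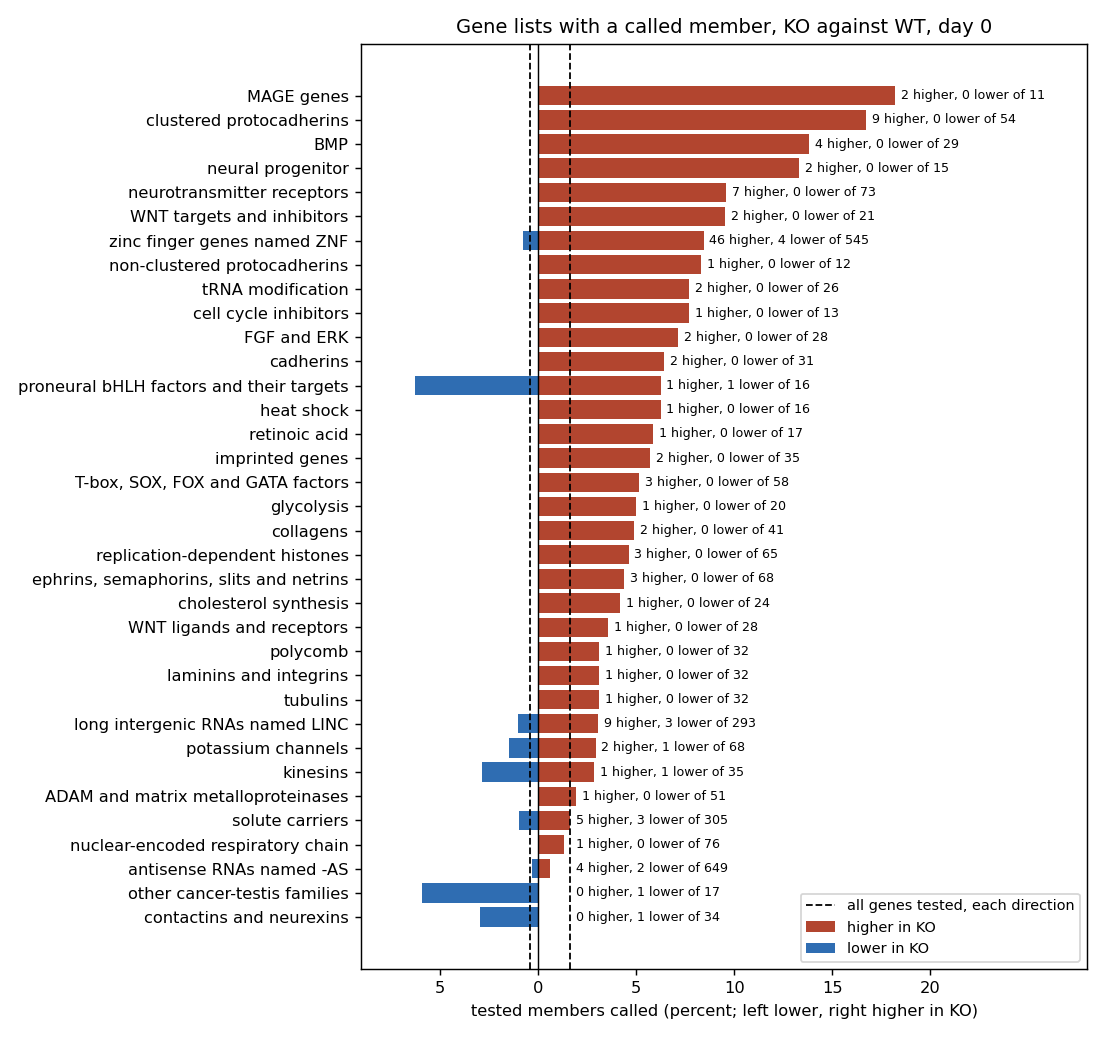
Gene lists with at least 10 tested members and at least 1 call, with the percent of tested members called higher (right) and lower (left) in KO; the dashed lines are the percentages over all genes tested, 1.66 and 0.416. Protocadherin, BMP, receptor and zinc finger lists lie to the right of the dashed line, with 9 of 54 clustered protocadherins and 46 of 545 ZNF genes called higher.

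Of 79 gene lists described, 31 had more members called higher than lower, 2 had more called lower, and 44 had no call. The plot of called shares by list shows where the calls lay. Lists with no call included those of DNA replication, mitosis, the proteasome and the unfolded protein response.

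The zinc finger genes named ZNF gave the largest count of any list. Most encode transcription factors of the KRAB family, which recruit silencing machinery and sit in clusters on chromosome 19. Of 690 such names, 545 were tested, and 46 (8.44%) were higher and 4 lower in KO (56 and 6 with the block), with a median of 0.08 log2. The share of all genes called higher was 1.66%. The pattern for this list also takes antisense genes of the loci, and members with similar coding sequence can share reads, so single levels are uncertain.

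The longest uninterrupted run of called neighbours in the genome was 12 genes on chromosome 19 between 11767000 and 12140407 (GRCh38, GENCODE 29), each higher in KO: ZNF441, ZNF491, ZNF440, ZNF69, ZNF700, ZNF763, ZNF433-AS1, ZNF433, ZNF878, ZNF844, ZNF788P and ZNF20. A second run of 4, ZNF44, ZNF563, ZNF442 and ZNF799, began at 12224686. ZNF433 was at 0.147, 0.2, 0.254 and 0.128 CPM in WT and at 3.75, 4.35, 4.55 and 3.79 in KO, a difference of 4.45 log2 (SE 0.22, adjusted p 6.09e-08). ZNF844 was at 1.2, 2.15, 1.85 and 1.95 CPM in WT and at 20.2, 13.1, 14.8 and 16.6 in KO (3.18 log2, SE 0.24, adjusted p 4.61e-06). Every KO library stood above every WT library for both genes. The most abundant member, ZNF69, rose from 5.78 to 8.07 CPM in WT to 40.2 to 43.3 in KO (2.65 log2, SE 0.14), and the smallest difference in the run was that of ZNF441, 1.40 log2 (SE 0.23, adjusted p 0.00414). HET against WT called 1.63% of all genes tested, and HET libraries differed from WT in the same direction at these genes, by 4.14 log2 at ZNF433 (adjusted p 1.45e-07) and 2.87 at ZNF844 (adjusted p 1.05e-05), against the same WT libraries.

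Because these neighbours moved together, the promoters of ZNF433 and ZNF844 are shown, with CG dinucleotides, the sites of DNA methylation, in capitals. They are the 250 bases before and 50 after the start given by RefSeq on GRCh38.p14: chr19:12035630-12035929 on the minus strand and chr19:12064481-12064780 on the plus strand.
ZNF433: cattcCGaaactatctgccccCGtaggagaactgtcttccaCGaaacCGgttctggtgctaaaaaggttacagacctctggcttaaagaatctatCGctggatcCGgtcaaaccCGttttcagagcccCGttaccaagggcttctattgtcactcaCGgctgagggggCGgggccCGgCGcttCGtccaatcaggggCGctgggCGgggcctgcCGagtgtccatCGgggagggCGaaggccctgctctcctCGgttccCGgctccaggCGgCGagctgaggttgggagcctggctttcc
ZNF844: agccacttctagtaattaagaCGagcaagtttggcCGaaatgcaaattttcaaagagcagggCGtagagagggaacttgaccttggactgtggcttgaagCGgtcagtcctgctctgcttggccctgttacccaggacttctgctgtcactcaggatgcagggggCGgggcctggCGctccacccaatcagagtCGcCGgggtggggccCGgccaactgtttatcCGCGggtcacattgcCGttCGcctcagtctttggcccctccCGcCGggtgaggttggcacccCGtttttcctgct
They held 22 and 16 CG sites. A promoter was found for 14 of the 16 genes in the runs, with 8 to 22 CG sites and a median of 14, where the promoters of 12949 genes tested had a median of 25. CG is its own reverse complement, so both strands are counted, and at least 1 occurs in 99.4% of the promoters of genes tested. Methylation itself was not measured.

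Other ZNF genes rose without forming long runs. ZNF717 was at 0.102 to 0.2 CPM in WT and at 9.1 to 13.6 in KO (6.12 log2, SE 0.22, adjusted p 4.24e-09). ZNF772 went from 1.52 to 2.55 CPM to 20.3 to 29.9 (3.67 log2, SE 0.17). ZNF737, in a run of 4 with ZNF826P, ZNF626 and ZNF66, went from 0 to 0.41 CPM to 21.4 to 27.8. All 3 were also higher in HET than in WT, by 6.49, 3.73 and 6.36 log2. The 4 that fell were ZNF680, ZNF572, ZNF726 and ZNF585B. ZNF680 had 10.7, 3.59, 2.94 and 2.52 CPM in WT and 0 counts in every KO library, at least 49.6-fold lower, whereas HET did not differ from WT (-0.49 log2, adjusted p 0.808). ZNF585B was at 18.6 to 21 CPM in WT and at 9.7 to 10.9 in KO (-0.95 log2, SE 0.11, adjusted p 0.000326).

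The clustered protocadherins are cell surface recognition molecules whose alpha, beta and gamma genes lie side by side on chromosome 5, each with its own promoter, and each neuron expresses a small choice of them. Of 60 members 54 were tested, and 9 (16.7%) were higher in KO and 0 lower, with a median of 0.48 log2, where 1.66% of all genes tested were higher. Summed over the 54, the level was 310, 386, 354 and 327 CPM in WT and 380, 520, 523 and 409 in KO. The groups overlap on this sum, and 32 of the 54 (59.3%) were higher in KO in all 4 pairs of libraries of the same number, where 16% of all genes tested were.

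PCDHGC3 was at 0.469, 0.848, 1.22 and 1.09 CPM in WT and at 33.5, 62.4, 54.2 and 41.6 in KO (5.72 log2, SE 0.32, adjusted p 2.71e-07). PCDHGA10 was at 2.55, 4.34, 4.32 and 3.03 CPM in WT and at 18.2, 21, 19.6 and 14.7 in KO (2.36 log2, SE 0.22). KO against HET was 0.05 log2 (SE 0.25) for PCDHGC3 and -0.16 (SE 0.21) for PCDHGA10, and neither passed. KO against HET called 0.856% of all genes tested, 0.524% higher and 0.333% lower in KO, and of the other 7 protocadherins 4 were higher in KO than in HET. PCDHGB4 was at 0.557, 0.998, 0.787 and 0.671 CPM in WT, at 12.4, 5.65, 4.73 and 4.25 in KO, and at a mean of 1.05 in HET (KO against HET 2.68 log2, adjusted p 0.00139). PCDHB15 was at 1.17, 1.47, 0.736 and 0.83 CPM in WT, at 6.07, 4.24, 3.43 and 2.94 in KO, and at a mean of 0.947 in HET (KO against HET 2.15 log2, adjusted p 0.00312). PCDHB16 and PCDHA10 were likewise higher in KO than in HET, by 2.12 and 1.18 log2 (adjusted p 0.000317 and 0.000599). For PCDHB13, PCDHB12 and PCDHGA8 the difference between KO and HET did not pass (adjusted p 0.316, 0.121 and 0.519). The gamma genes share their last exons, so reads from those exons cannot be assigned to 1 gene with certainty.

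**Figure D2:**
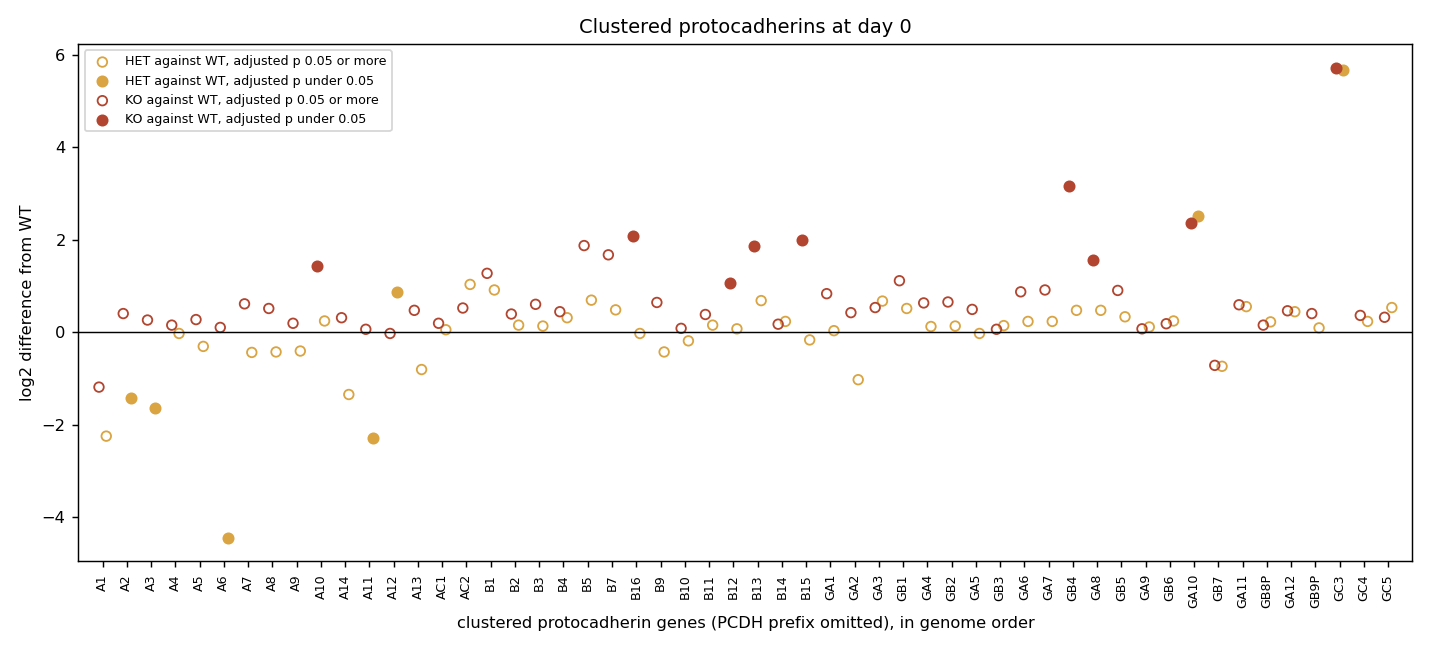
Log2 difference from WT at day 0 of the 54 tested clustered protocadherins in genome order, for KO and for HET; filled points passed an adjusted p of 0.05. PCDHGC3 (GC3) and PCDHGA10 (GA10) carry filled points for both genotypes, at 5.72 and 5.67 and at 2.36 and 2.52. GB4, B15, B16 and A10 are filled for KO. A6, A11, A3 and A2 are filled for HET alone, at -4.45, -2.30, -1.64 and -1.42, as is A12 at 0.86.

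In the plot of the cluster in genome order, PCDHB12 and PCDHB13 are called neighbours, as are PCDHGB4 and PCDHGA8, and the other 5 called genes stand alone. Some alpha genes passed in HET against WT and not in KO. PCDHA6, PCDHA11, PCDHA3 and PCDHA2 were lower in HET than in WT, and PCDHA12 was higher. With the replicate block, which called 3.54% of all genes higher and 1.15% lower, 13 members were called higher and 0 lower. Calls for PCDHB12 and PCDHGA8 were lost without 6 and 8 of the 8 libraries in turn (adjusted p up to 0.13 and 0.137), and the list then gave 7 or 8 calls. The promoters of PCDHB15 (chr5:141245145-141245444, plus strand) and PCDHGB4 (chr5:141387448-141387747, plus strand), from RefSeq on GRCh38.p14, stand for the genes that differed between KO and HET, again with CG in capitals.
PCDHB15: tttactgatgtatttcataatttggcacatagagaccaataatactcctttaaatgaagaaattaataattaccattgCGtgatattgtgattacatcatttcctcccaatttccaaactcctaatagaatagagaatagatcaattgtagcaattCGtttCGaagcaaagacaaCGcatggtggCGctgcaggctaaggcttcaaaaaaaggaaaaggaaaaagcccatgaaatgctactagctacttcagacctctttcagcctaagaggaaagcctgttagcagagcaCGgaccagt
PCDHGB4: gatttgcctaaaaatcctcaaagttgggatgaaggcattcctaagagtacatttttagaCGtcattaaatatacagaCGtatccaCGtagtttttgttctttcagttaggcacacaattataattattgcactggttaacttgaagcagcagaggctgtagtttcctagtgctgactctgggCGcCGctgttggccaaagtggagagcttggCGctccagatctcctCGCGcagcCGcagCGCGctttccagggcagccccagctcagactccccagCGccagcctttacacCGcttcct
They held 6 and 13 CG sites. The promoters of the 9 called members held 5 to 18 with a median of 8, and those of the 46 tested members with a promoter 2 to 27 with a median of 7.

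Some BMP ligands and 1 BMP target were higher in KO. BMP ligands act through SMAD1 and SMAD5 and switch on ID and MSX genes, and in human stem cells they favour extraembryonic fates. Of 29 BMP pathway genes tested, 4 (13.8%) were higher and 0 lower, with a median of 0.73 log2, where 1.66% of all genes tested were higher. The 4 were 3 ligands, BMP2, BMP8A and GDF7, and the target ID2, which encodes an inhibitor of basic helix-loop-helix factors.

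BMP2 was at 2.84, 3.07, 3.35 and 3.29 CPM in WT and at 9.91, 9.44, 4.95 and 6.04 in KO (1.27 log2, SE 0.28, adjusted p 0.0365). GDF7 was at 0.733, 1.02, 1.24 and 0.99 CPM in WT and at 3.96, 3.98, 3.9 and 4.05 in KO (1.99 log2, SE 0.18, adjusted p 3.52e-05). ID2 was at 16.1, 18.9, 22.3 and 29.6 CPM in WT and at 30.1, 52, 45 and 45.3 in KO (0.99 log2, SE 0.19, adjusted p 0.0141). In all 3 genes the lowest KO library lay above the highest WT library. BMP8A went from 0.543 to 1.14 CPM to 1.67 to 2.13 (1.31 log2, SE 0.22). GDF7 was higher in KO than in HET (1.53 log2, adjusted p 0.000599), and HET against WT passed for BMP8A (1.36 log2, adjusted p 0.00528) and not for BMP2 (adjusted p 0.0591).

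With the replicate block, which called 3.54% of all genes higher, 8 BMP genes were called. The added ones were the ligand BMP7, the target MSX1 and the secreted antagonists NOG and GREM1. GREM1 was at 2.32, 26.5, 5.84 and 1.31 CPM in WT and at 10.6, 121, 21.8 and 3.79 in KO, so replicate 2 was highest in both groups and each KO library exceeded the WT library of its number (2.11 log2, adjusted p 0.535 without and 0.000343 with the block). The targets ID1 and ID3 differed by 0.48 and 0.33 log2 and passed in neither fit (adjusted p 0.051 and 0.239 with the block). The receptors BMPR1A and BMPR2 and the signal transducers SMAD1 and SMAD5 lay between -0.06 and 0.19 log2. The receptor BMPR1B and the inhibitor SMAD6 were at 0.78 and 0.73 log2 and passed in neither fit (adjusted p 0.176 and 0.2 with the block), although BMPR1B was at 3.55, 8.01, 5.81 and 4.06 CPM in WT and at 4.95, 15.8, 8.88 and 7.32 in KO, higher in each pair of the same number. Without WT replicate 2 the count of 4 became 2. BMP2 lost its call without 6 of the 8 libraries in turn (adjusted p up to 0.117), and ID2 without WT replicate 2 (0.0521).

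**Figure D3:**
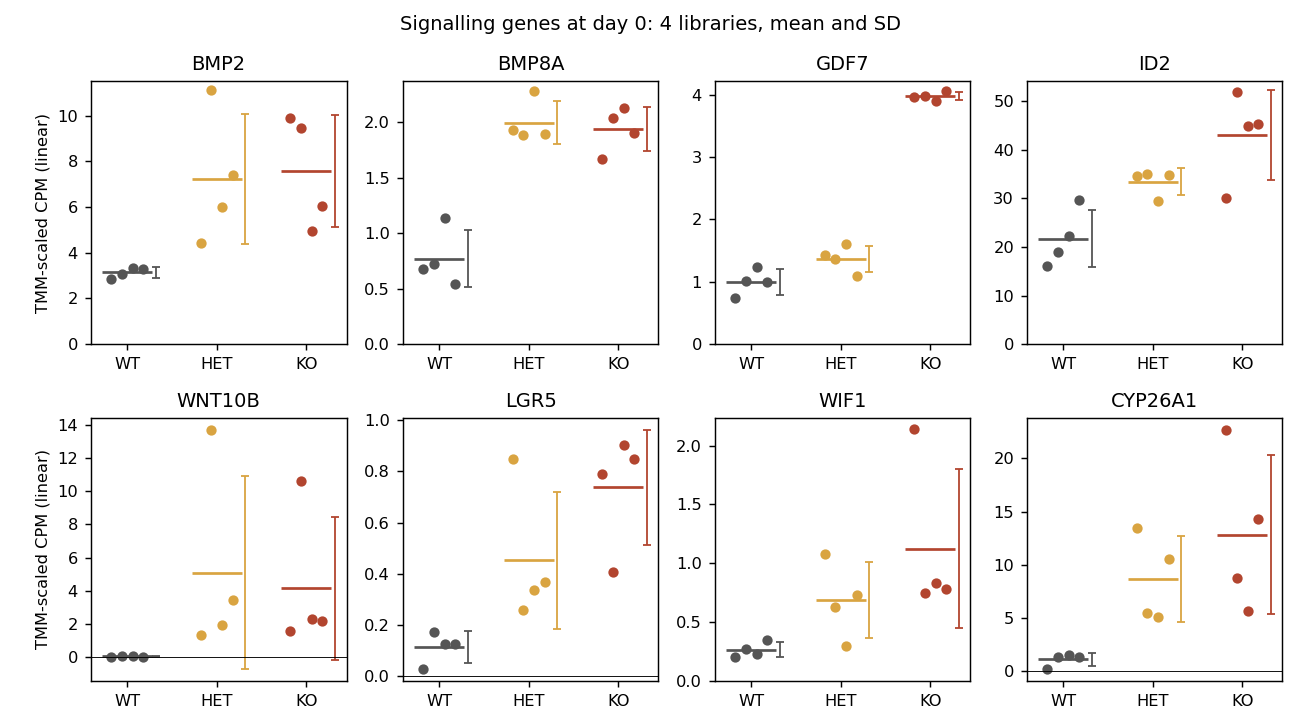
TMM-scaled CPM of 8 signalling genes in each WT, HET and KO library of day 0 on a linear scale, with the group mean (line) and SD (bar). The KO points of BMP2, BMP8A, GDF7 and ID2 lie above all WT points, and 1 KO library of WNT10B, at 10.6 CPM, stands above the rest.

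WNT ligands stabilise beta-catenin, which acts with LEF1 and related factors, and many of its targets are feedback inhibitors of the pathway. Of 28 ligands and receptors tested 1 (3.57%) was higher, WNT10B. Of 21 targets and inhibitors 2 (9.52%) were, the stem cell receptor LGR5 and the secreted inhibitor WIF1. None was lower, and 1.66% of all genes tested were higher. WNT10B was at 0.0293 to 0.0998 CPM in WT and at 1.58, 10.6, 2.31 and 2.16 in KO (6.14 log2, SE 1.09, adjusted p 0.00837). LGR5 was at 0.0293 to 0.175 CPM in WT and at 0.791, 0.409, 0.903 and 0.85 in KO (2.63 log2, SE 0.49, adjusted p 0.0125). WIF1 was at 0.205 to 0.351 CPM in WT and at 2.14, 0.743, 0.831 and 0.784 in KO (2.09 log2, SE 0.45, adjusted p 0.0305). All were low in absolute terms. HET differed from the same WT libraries in the same direction, by 6.44 log2 at WNT10B (adjusted p 0.00698), 1.95 at LGR5 (adjusted p 0.0951) and 1.39 at WIF1 (adjusted p 0.222). The 21 targets and inhibitors had a median of 0.61 log2 in KO and 0.72 in HET.

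The block, which called 3.54% of all genes higher, brought the targets and inhibitors to 5 of 21, adding LEF1, SP5 and AXIN2. It brought the ligands and receptors to 3 of 28, adding WNT4 and WNT7B. LEF1 was at 1.41, 2.57, 2.11 and 1.5 CPM in WT and at 11.5, 9.92, 11.9 and 4.28 in KO (2.30 log2, adjusted p 0.0587 without and 0.0198 with the block). AXIN2, a feedback inhibitor, was at 28.2, 18.7, 23.1 and 27.1 CPM in WT and at 42.5, 27.7, 31.4 and 34.4 in KO (0.49 log2, adjusted p 0.426 without and 0.0423 with the block). The AXIN2 groups overlapped, and each KO library exceeded the WT library of its number. In HET against WT without the block SP5 passed (5.72 log2, adjusted p 0.0162), and LEF1 and AXIN2 did not (2.35 and 0.42 log2, adjusted p 0.0637 and 0.52). WIF1 lost its call without 5 of the 8 libraries in turn (adjusted p up to 0.109), so that 1 of the 2 calls was left when KO replicate 1 or any 1 WT library was omitted; with a filter of at least 1 CPM in 4 libraries neither was tested.

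Among other secreted signals, the retinoic acid degrading enzyme CYP26A1, itself induced by retinoic acid, was at 0.235, 1.4, 1.52 and 1.34 CPM in WT and at 22.7, 8.73, 5.63 and 14.3 in KO (3.50 log2, SE 0.56, adjusted p 0.00405). It was 1 of 17 retinoic acid genes tested (5.88%) and the single call, where 1.66% of all genes tested were higher. CYP26A1 was also higher in HET than in WT (2.94 log2, adjusted p 0.0149). FGF8 and FGF17, ligands of 1 FGF subfamily, were the called 2 of 28 FGF and ERK genes (7.14%, adjusted p 0.0419 and 0.042). They reached at most 0.722 and 0.673 CPM in any day 0 library. The calls were lost without 8 and 6 of the 8 libraries in turn, with adjusted p up to 0.129 and 0.148. FGF17 was also higher in HET than in WT (3.32 log2, adjusted p 0.0184), and FGF8 did not pass there (1.17 log2, adjusted p 0.161). The chemokine CXCL5 went from 0 to 0.147 CPM in WT to 9.06, 38.1, 15.6 and 25.4 in KO (8.54 log2, SE 1.18, adjusted p 0.00123). The Notch, hedgehog, Hippo, Nodal and immediate early lists had no edgeR call without the block, with 1 to 4 members each under an unadjusted p of 0.05 and 0 or 1 called by DESeq2. With the block 1 Notch gene was higher and 1 lower, 1 Hippo gene and 2 immediate early genes were higher, and the hedgehog and Nodal lists had 0 calls. The medians lay between 0.08 and 0.18 log2.

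Some neural progenitor genes and 1 mesodermal factor, TBX15, were higher in KO. Of 7 mesendoderm genes tested 0 were called without the block and 1 with it. Of 15 neural progenitor genes tested 2 (13.3%) were higher, PROM1 and ZIC1, where 1.66% of all genes tested were. All 15 had a difference above 0, with a median of 0.71 log2 in KO and 0.46 in HET against the same WT libraries. Members near 0 in WT, such as ZIC1, passed the low count filter mainly through the other groups, which favours a difference above 0. PROM1, which encodes the membrane protein CD133, was at 51.6, 60.4, 56.1 and 63.3 CPM in WT and at 99.9, 91.5, 76.4 and 95.3 in KO (0.65 log2, SE 0.11, adjusted p 0.00471). ZIC1 was at 0 to 0.383 CPM in WT and at 13, 1.78, 1.37 and 0.588 in KO, and its call was lost with the block (adjusted p 0.0311 without and 0.0619 with it) and without WT replicate 1, 2 or 3 (up to 0.121). The block, which called 3.54% of all genes higher, called 4 of the 15 neural progenitor genes higher, among them SOX3 (1.14 log2) and OTX1 (2.12 log2). TBX15, a mesodermal T-box factor, was called in every fit: it was at 0.498, 0.774, 0.279 and 0.351 CPM in WT and at 16.9, 24.1, 19 and 20 in KO (5.37 log2, SE 0.28, adjusted p 1.34e-07), with a mean of 0.368 in HET. IRX1, a homeobox gene, was at 2.02, 5.86, 5.33 and 6.96 CPM in WT and at 18.4, 26, 29.2 and 24.9 in KO (2.29 log2, SE 0.30), with a mean of 6.84 in HET.

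HOX genes, which set position along the body axis, were near 0 in WT, and 1 library each of KO and HET stood above the rest. Of 39 members 9 passed the low count filter, mainly through some of the KO and HET libraries, which favours a large difference above 0. Their sum was at 0.557, 0.474, 0.889 and 0.543 CPM in WT and at 93.4, 3.64, 9.14 and 9.74 in KO, with 193, 0.663, 4.43 and 10 in HET. edgeR called 0 without the block (8 under an unadjusted p of 0.05, 1 called by DESeq2), and the adjusted p of HOXB9 was 0.189. With the block over the 12 day 0 libraries 8 were called, and with the block on the KO and WT libraries alone 4 were. HOXB9 was at 36.2, 0.557, 0.361 and 2.12 CPM in KO and at most 0.117 in WT, and CDX2, a trophoblast and caudal factor, at 15.9, 0.26, 0.542 and 1.44 in KO and at most 0.0749 in WT. KO replicate 1 was the highest for each. The summed trophoblast and amnion markers were at 0.34 to 6.26 TPM in KO and 0.15 to 0.37 in WT, and the summed mesoderm and endoderm markers at 0.43 to 2.34 and 0.38 to 0.72; 1 marker of each was called with the block. Fewer cells of a type and less RNA per cell cannot be told apart in bulk RNA, and the part of such cells in the results was not tested.

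A group of p53 targets was higher in KO when libraries were compared within their replicate numbers. p53 responds to DNA damage and other stress and switches on cell cycle inhibitors and death receptors. Of 23 targets tested, edgeR called 0 without the block (7 under an unadjusted p of 0.05, 2 called by DESeq2), with a median of 0.36 log2. With the block, which called 3.54% of all genes higher, 8 were called higher and 0 lower: CDKN1A, FAS, PHLDA3, TP53INP1, TNFRSF10B, BAX, CCNG1 and AEN. CDKN1A, the cell cycle inhibitor p21, was at 3.02, 13.6, 4.65 and 4.66 CPM in WT and at 4.92, 35.7, 12.1 and 6.89 in KO (1.19 log2, adjusted p 0.586 without and 0.0227 with the block). FAS, a death receptor, was at 1.91, 3.54, 2.23 and 2.24 CPM in WT and at 3.08, 12, 6.86 and 5.1 in KO (1.44 log2, adjusted p 0.16 and 0.0131). CCNG1 was at 321, 299, 294 and 345 CPM in WT and at 360, 417, 361 and 474 in KO (0.36 log2, adjusted p 0.0607 and 0.0175). Of the 23, 17 (73.9%) were higher in KO in all 4 pairs of libraries of the same number, where 16% of all genes tested were. The shift was not particular to KO: HET against the same WT libraries had a median of 0.43 log2 over these targets. CCNG1 passed in HET without the block (0.40 log2, adjusted p 0.038).

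**Figure D4:**
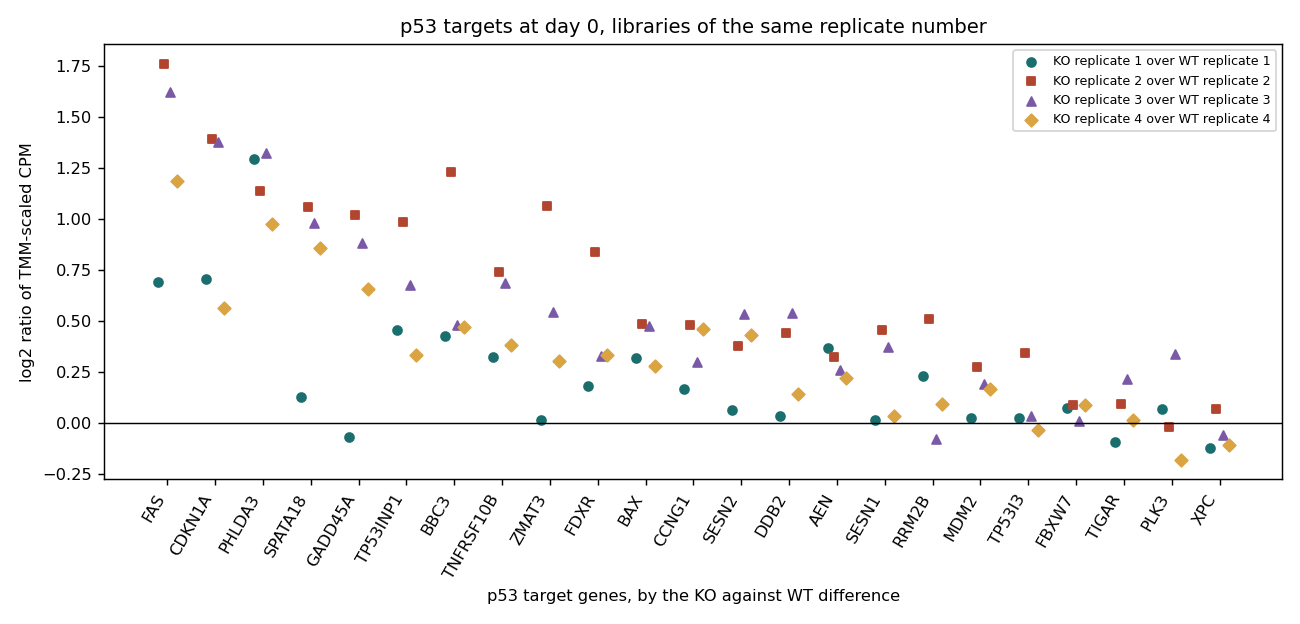
Log2 ratio of KO over WT CPM for each of the 4 pairs of libraries with the same replicate number, for the 23 p53 targets tested at day 0. The ratios of the 8 genes called with the replicate block, from FAS to AEN, lie above 0 in all 4 pairs.

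Genes outside that list but known as p53 targets were called without the block. PURPL, a noncoding RNA that p53 induces, was at 0.586, 0.898, 0.559 and 0.383 CPM in WT and at 5.63, 7.21, 4.26 and 3.14 in KO (3.04 log2, SE 0.41, adjusted p 0.00102). EDA2R, an X-linked receptor, was at 0 to 0.025 CPM in WT and at 5.07, 13.2, 7.33 and 6.01 in KO (9.52 log2, SE 0.72). Both were named after their values were seen. The lists of DNA replication (28 genes), mitosis (24), the integrated stress response (22), the unfolded protein response (18), hypoxia (20) and NRF2 targets (19) had no edgeR call in either fit, with 0 to 5 members each under an unadjusted p of 0.05, 0 or 1 called by DESeq2, and medians between -0.04 and 0.07 log2. BTG1, an antiproliferative factor, was the called member among 13 cell cycle inhibitors (0.38 log2, SE 0.09, adjusted p 0.0421), and lost the call without 7 of the 8 libraries in turn (up to 0.152).

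In the heat shock list HSPA1A was higher and its near-identical neighbour HSPA1B was not. HSPA1A was at 15.5, 14.7, 8.99 and 13.8 CPM in WT and at 37.6, 76.9, 62.1 and 63.2 in KO (2.18 log2, SE 0.28, adjusted p 0.000564). HSPA1B was at 56, 95.1, 83.2 and 90 CPM in WT and at 41.5, 72.9, 57.4 and 66.2 in KO (-0.45 log2, adjusted p 0.47, and 0.00135 with the block). Reads can be split between these copies. Their sum was at 71.6, 110, 92.2 and 104 CPM in WT and at 79.1, 150, 120 and 129 in KO, and these ranges overlap.

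The X chromosome had the highest share of calls: 35 of 683 tested genes were higher (5.12%) and 4 lower, where 1.66% and 0.416% were over all genes, and 12 of the 44 genes switched on in KO lay there. The median of its expressed protein-coding genes was 0.02 log2, and medians of all nuclear chromosomes lay between -0.03 and 0.03, and M, with 13 such genes, was at 0.26. Chromosome 5, with the protocadherins, had 34 higher of 929 (21 without WT replicate 3), and chromosome 19, with the zinc finger runs, 44 of 1333.

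**Figure D5:**
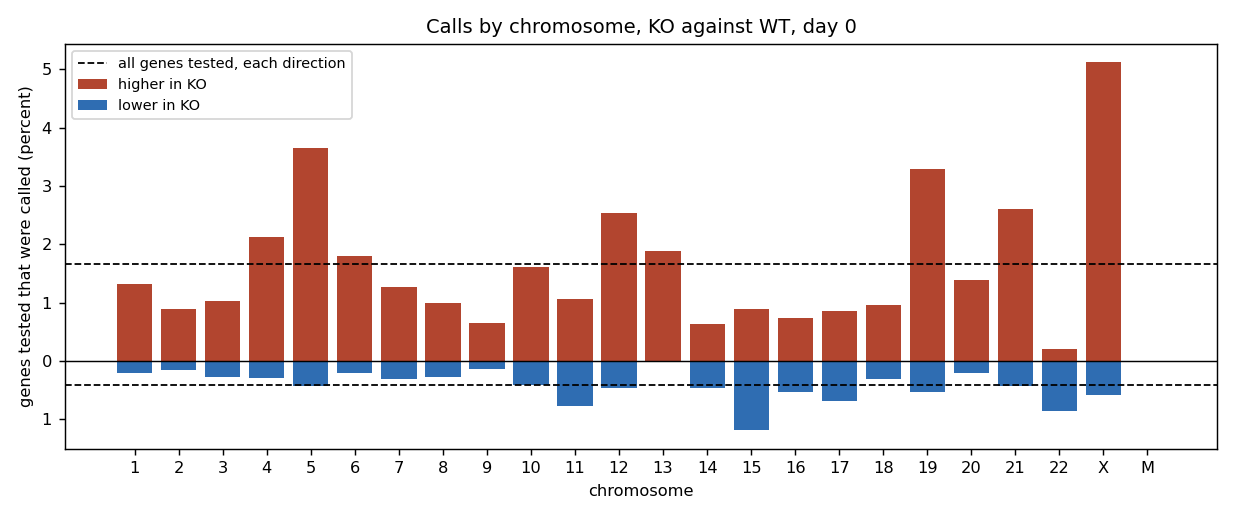
Percent of tested genes called higher (above 0) and lower (below 0) in KO on each chromosome at day 0, with dashed lines at the percentages over all genes tested, 1.66 and 0.416. X, 5 and 19 have the highest shares of rises at 5.12, 3.66 and 3.3, and M has none.

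Calls on the X chromosome included genes near 0 in WT and genes expressed in both groups. MAGEH1, USP51, RRAGB, a gene without a symbol and KLF8 form a run between 55452105 and 56287889 and were on in KO. MAGEH1, of the MAGE family of ubiquitin ligase partners, had 0 counts in WT and was at 10.7, 15.6, 15.2 and 16.2 CPM in KO, at least 169-fold higher. MAGEE1, of the same family, had 0 counts in WT and in HET and was at 12.8, 11.4, 11 and 13.8 CPM in KO, at least 143-fold higher; MAGEH1 was on in HET too (11.74 log2, adjusted p 6.64e-08). CASK, a synaptic scaffold kinase, was at 122, 114, 112 and 112 CPM in WT and at 243, 253, 248 and 242 in KO (1.10 log2, SE 0.06, adjusted p 2.05e-07). MORF4L2, a subunit of histone acetyltransferase complexes, was at 274, 292, 257 and 274 CPM in WT and at 510, 541, 495 and 508 in KO (0.90 log2, SE 0.06). The libraries of each group were tight and far apart, and both genes were higher in KO than in HET, by 1.17 and 0.96 log2 (adjusted p 2.54e-07 and 1.85e-06). AIFM1, a mitochondrial flavoprotein, was higher in KO (0.85 log2) and in HET (0.91 log2). BCOR, a polycomb subunit, was at 137, 120, 126 and 126 CPM in WT and at 283, 166, 171 and 188 in KO (0.67 log2, SE 0.16, adjusted p 0.049), and its call was lost with the block (0.0509), under library size scaling and without 5 of the 8 libraries in turn (up to 0.139). The other 31 polycomb genes were not called without the block.

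Of the 65 replication-dependent histone genes tested, 3 (4.62%) were higher, where 1.66% of all genes tested were, and all 3 calls were kept without each library in turn. H3C3 was at 2.64, 1.12, 1.68 and 1.66 CPM in WT and at 107, 95.2, 135 and 145 in KO (6.09 log2, SE 0.33, adjusted p 1.88e-07). H4C13 was at 0.0293, 0.0749, 0.102 and 0.128 CPM in WT and at 23.8, 22, 27.4 and 32.9 in KO (8.26 log2, SE 0.32). H2BC3 was at 1.44, 0.574, 1.07 and 0.575 CPM in WT and at 29.7, 31.4, 40.9 and 55.7 in KO (5.43 log2, SE 0.33). HET means were 0.894, 0.0729 and 0.669 CPM for these genes, with KO against HET at 7.00, 8.40 and 5.85 log2. The median of the 65 was -0.03 log2. Histone genes are near copies of each other, so reads could have been assigned among them.

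Glycolysis, cholesterol synthesis, nuclear respiratory chain and tRNA modification lists had medians of 0.01, 0.05, -0.04 and -0.04 log2. Their shares called higher were 5%, 4.17%, 1.32% and 7.69%, where 1.66% of all genes tested were higher. Each share rests on 1 or 2 genes. LDHA, lactate dehydrogenase A, was the called member of 20 glycolysis genes, at 359, 398, 298 and 310 CPM in WT and 529, 549, 416 and 445 in KO (0.51 log2, SE 0.11, adjusted p 0.0305). HMGCS1, which makes the precursor of mevalonate, was that of 24 cholesterol synthesis genes (0.42 log2, SE 0.08, adjusted p 0.0145). NDUFB4, a complex I subunit, was at 20, 18.7, 17 and 19 CPM in WT and at 40.3, 33.5, 37.2 and 42.3 in KO (1.04 log2, SE 0.11, adjusted p 8.06e-05), where the other 75 nuclear respiratory chain genes tested were not called. Calls for LDHA and HMGCS1 were lost without 5 and 2 of the 8 libraries in turn (up to 0.11 and 0.0633). INPP5F, an imprinted-locus inositol phosphatase, was at 29.3, 33.8, 33.8 and 29.1 CPM in WT and at 192, 208, 222 and 204 in KO (2.71 log2, SE 0.08, adjusted p 5.34e-10), with a mean of 35 in HET. Of the tRNA modification genes TYW3, which acts in wybutosine synthesis, and the pseudouridine synthase homologue PUS7L were on in KO and in HET, and the other 24 tested were not called. Of 305 solute carriers 5 were higher (1.64%, where 1.66% of all genes were) and 3 lower (12 and 7 with the block). The glutamate transporter SLC1A3 went from 18.7 to 23.8 CPM to 35.9 to 49 (0.99 log2, SE 0.13) and SLC1A2, another, from 0.967 to 2.05 to 4.75 to 7.99 (1.96 log2, SE 0.28). SLC5A12, a lactate transporter, was at 8.06 to 10.4 CPM in WT and at 2.81 to 4.21 in KO (-1.36 log2, adjusted p 0.000188), and the pseudogene SLC9A7P1 went from 1.32 to 1.58 CPM to at most 0.0722.

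Among abundant calls, VCAN, GJA1, DPYSL3 and SF3B3 rose by 0.26 to 0.64 log2 and BTF3 by 1.01. VCAN, a matrix proteoglycan, was at 778, 678, 799 and 745 CPM in WT and at 1120, 889, 1082 and 984 in KO (0.44 log2, SE 0.09, adjusted p 0.025). GJA1, the gap junction protein connexin 43, was at 523, 550, 541 and 553 CPM in WT and at 815, 852, 850 and 836 in KO (0.63 log2, SE 0.07, adjusted p 0.000154). DPYSL3, a cytoskeletal regulator of growth cones, rose by 0.64 log2 (SE 0.15, adjusted p 0.046) and SF3B3, a splicing factor, by 0.26 (SE 0.05, adjusted p 0.0141). VCAN, DPYSL3 and SF3B3 lost their calls without single libraries (up to 0.0841, 0.158 and 0.0559), and DPYSL3 also under library size scaling. BTF3, a nascent chain binding factor, was at 227, 203, 198 and 187 CPM in WT and at 498, 377, 380 and 385 in KO (1.01 log2, SE 0.09).

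Neuronal surface genes were detectable before induction, and some were higher in KO. Of 73 genes named as neurotransmitter receptors 7 (9.59%) were higher and 0 lower, with a median of 0.19 log2, where 1.66% of all genes tested were higher. Of the 7, HTRA1 is a secreted protease that the name pattern takes in. GRIN2B, an NMDA receptor subunit, was at 5.75, 9.91, 6.63 and 7.22 CPM in WT and at 20.5, 22.9, 20.1 and 20.9 in KO (1.51 log2, SE 0.15, adjusted p 8.06e-05). GRM3, a metabotropic glutamate receptor, was at 3.4, 3.44, 6.25 and 6.1 CPM in WT and at 8.26, 13.2, 27.9 and 24.7 in KO (1.95 log2, SE 0.41, adjusted p 0.0258). ADRA2A, HTR1A, GABRB2 and CHRNA7 rose by 3.65, 3.01, 1.95 and 0.47 log2. Without WT replicate 3 the 7 calls became 3, and without WT replicate 2 or KO replicate 3 they became 4. Of 68 guidance ligands and receptors 3 (4.41%) were higher, the ephrin EFNA2 and the semaphorins SEMA6A and SEMA3D, by 3.50, 0.38 and 1.26 log2. SEMA3D lost its call without WT replicate 3 (adjusted p 0.0612). Among 31 cadherins FAT3 was at 164, 214, 212 and 183 CPM in WT and at 334, 330, 399 and 304 in KO (0.82 log2, SE 0.11), and CDH20 rose by 2.24 log2 (SE 0.24). The block called 3.54% of all genes higher and 1.15% lower. With it the counts were 10 higher and 1 lower for the receptors, 7 and 1 for the guidance genes and 5 and 1 for the cadherins. Of 34 contactin and neurexin genes 27 had a difference above 0 (median 0.43 log2), and the single call without the block went the other way: SLITRK2 was at 0.762 to 1.66 CPM in WT and 0 counts in KO, at least 11.1-fold lower. With the block 4 of the 34 were higher and 1 lower.

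The graded falls were fewer. ALPK3, a kinase of muscle cells, was at 24.2, 18.7, 26.3 and 23.5 CPM in WT and at 1.2, 1.45, 1.05 and 0.719 in KO (-4.39 log2, SE 0.19, adjusted p 1.96e-08), with a mean of 31.7 in HET. PCLAF, a PCNA clamp partner, was at 55.6, 46, 54.3 and 60.8 CPM in WT and at 19.5, 24, 21.4 and 27.6 in KO (-1.23 log2, SE 0.12), although the 28 replication genes had no call. THUMPD3, a tRNA methyltransferase, and HPS3, of lysosome-related organelle biogenesis, were at means of 77.3 and 69.3 CPM in WT and 35.1 and 31.8 in KO (-1.14 and -1.12 log2). In HET, PCLAF, THUMPD3 and HPS3 differed from WT by -0.04, -0.03 and -0.06 log2. ARRB1, an arrestin, was at 61.8, 90.5, 58.5 and 77 CPM in WT and at 17.4, 20.6, 20.7 and 13.2 in KO (SE of the log2 difference 0.24, adjusted p 0.000314), and fell in HET as well (-1.89 log2, adjusted p 0.000502). NPTX1, a secreted neuronal pentraxin, was at 17.3, 4.07, 20.2 and 8.21 CPM in WT and at 3.11, 2.94, 1.99 and 2.09 in KO (-2.29 log2, SE 0.44, adjusted p 0.0154), a call lost without 4 of the 8 libraries in turn (up to 0.0582).

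NEUROG2, which encodes the induction factor NGN2, was at 29.6, 34.5, 15.8 and 11.6 CPM in WT and at 2.43, 2.3, 1.77 and 1.67 in KO (-3.48 log2, SE 0.38, adjusted p 0.000168). Whether its counts came from the endogenous gene or a transgene was not tested. The tdTomato reporter sequence in the count table fell alongside it, from 162, 164, 170 and 132 CPM of the library total in WT to 51.1, 41.3, 49.8 and 35.2 in KO, with 106, 82.2, 81.6 and 70.9 in HET. In exact two-sided permutation tests over 70 splits the KO to WT ratio of 0.283 had p 0.0286, the smallest this design allows (adjusted over 7 values 0.1). NHLH2, a basic helix-loop-helix factor and the other call among 16 proneural genes, was higher (2.56 log2, SE 0.56, adjusted p 0.0345), a call lost without 5 of the 8 libraries in turn (up to 0.129). The median of that list was -0.54 log2.

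Lists with no call in either fit numbered 22 of 79. Among them were the 36 tested neighbours of RAI1 in the Smith-Magenis region, the 5 RAI1 complex genes, the 25 BAF subunits, the 18 DNA methylation genes and the 20 clock genes. Their medians lay between -0.06 and 0.05 log2. Each had 0 to 4 members under an unadjusted p of 0.05, and DESeq2 called 2 of the Smith-Magenis neighbours and 1 clock gene. The 43 proteasome and 20 tRNA synthetase genes had 0 calls in either fit or by DESeq2, with medians of -0.01 and -0.02 log2, and 2 and 1 under an unadjusted p of 0.05.

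The 425 genes called at day 0 were then read in the libraries of days 3 and 7, which did not enter the day 0 fit although they carry the same genotype labels. At day 3, 371 were tested and 236 (63.6%) were called in the same direction, where 21.6% of all genes were called, 12.6% higher and 8.93% lower. At day 7, 374 were tested and 253 (67.6%) were called in the same direction, where 32.6% of all genes were called, 17% higher and 15.6% lower. Of the 53 genes on or off at day 0, 44 were tested at each later day, and all of these were called in the same direction. A gene silent in 1 group passes the low count filter only through the groups that still express it. This outcome was therefore largely set by the filter. Of the graded genes tested, 58.7% were called in the same direction at day 3 and 63.3% at day 7. ZNF433 was higher in KO by 5.41 and 5.75 log2 at days 3 and 7, PCDHGB4 by 3.93 and 4.77, and CASK by 1.82 and 2.07. BMP2 was higher by 1.38 (adjusted p 0.0307) and 2.45 (adjusted p 8.14e-05). Of the genes lower in KO at day 0, 47.4% of those tested were called lower at day 3 and 51.9% at day 7. In all, 12 genes were called in the opposite direction at day 3 and 32 at day 7, among them at day 7 GJA1 (-5.22 log2) and ARRB1 (1.31 log2).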

How the data were processed

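Total RNA depleted of ribosomal RNA was sequenced from 36 samples, of which the 4 KO, 4 WT and 4 HET libraries of day 0 entered the main fit. The deposited estimated counts per gene were whole numbers, and the deposited TPM values were scaled by the authors to a common sum per library. Per the submitters' processing notes the tools included cutadapt 4.8, STAR 2.7.8a and RSEM 1.3.3 with GRCh38; the annotation release and strand setting are not given in the sources used here, so antisense and overlapping genes cannot be told apart. Gene places were taken from GENCODE 29, in which 92.9% of the IDs were found.

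Counts were tested with edgeR 4.0.16 (quasi-likelihood, TMM, filterByExpr, R 4.3.3), and genes at a Benjamini-Hochberg adjusted p under 0.05 over all genes tested were called. A floor of 3 counts was 0.075 to 0.11 CPM. The labels give replicate numbers without saying what they share. Deviations from the group means correlated at 0.198 to 0.466 between KO and WT libraries of the same number and at -0.31 to 0.106 between different numbers, so the numbers were taken to pair KO and WT at day 0. HET replicate 1 did not follow KO or WT replicate 1 (-0.068 and -0.031), and KO replicate 1 correlated at 0.337 with HET replicate 4. HET replicates 2 to 4 followed those of their number at 0.174 to 0.482. The block was fitted over all 12 day 0 libraries, so its calls rest partly on HET. Single values were compared by exact two-sided permutation. Alternatives used DESeq2 1.42.0, limma 3.58.1 on log2(TPM + 1), other scalings, filters and covariates, and each library left out in turn; the tests were tried on simulated data. Totals of 27.2 to 40.1 M counts limit precision most for genes under 1 CPM.

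Genes were named by list (up to 5 called members and the first 3 measured), by size of graded change, as on or off genes, by abundance and by chromosome; further genes were chosen after their values were seen. The members and lists were chosen with earlier results of these data known. Promoter sequences came from RefSeq. Some results are not reported here.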

Additional observations from a re-analysis of the deposited data

Results flagged for a closer look

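In 17 of 204 groups of 4 libraries examined, 1 library lay far from the other 3; chance alone marks about 1 group in 20. KO replicate 1 was the highest of its group for CDX2 (15.9 CPM), FOXA2 (2.81 CPM), ZIC1 (13 CPM), WIF1 (2.14 CPM), EFNA2 (9.64 CPM), HOXB9 (36.2 CPM) and BTF3 (498 CPM). KO replicate 2 was the highest for WNT10B (10.6 CPM) and GREM1 (121 CPM). WT replicate 2 was the highest for CDKN1A (13.6 CPM), EOMES (0.749 CPM), EFNA2 (0.948 CPM) and EDA2R (0.025 CPM). WT replicate 1 was the highest for HTR1A (0.616 CPM), ZFP42 (14.1 CPM) and ZNF680 (10.7 CPM) and the lowest for CYP26A1 (0.235 CPM).

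Some genes called at day 0 had all KO libraries on one side of all WT libraries at day 0 and on the opposite side at a later day; the difference between days was not tested. Among genes higher in KO at day 0, the log2 difference at day 7 was -3.43 for SLC1A3, -0.68 for BTG1, -0.98 for CHRNA7, -1.02 for SEMA6A, -5.22 for GJA1 and -1.71 for IRX1, and that of GJA1 at day 3 was -1.20. Among genes lower at day 0, NPTX1 was higher in KO by 2.05 log2 at day 3 and 2.22 at day 7, and ARRB1 by 1.23 and 1.31.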

How the results depend on the processing

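The 425 calls of KO against WT at day 0 became 902 with DESeq2, 186 against a fold of 1.5, 238 with limma on TPM and 289 to 469 with 1 library left out. With the replicate block they became 960, and 1290 with the block on the 8 libraries alone, a fit added after the data were seen. HET against WT (333) gave 655 with DESeq2, 184 with limma on TPM, 689 with the block and 239 to 392 with 1 library left out, and KO against HET (175) gave 154 to 172. The 236 calls shared in direction at day 3 became 437, 97 and 492 under DESeq2, limma on TPM and the block, and 216 to 243 with 1 library left out. The 253 at day 7 became 433, 84 and 425 in the same runs, and 236 to 251. At day 7, deviations of KO and WT libraries of the same number correlated at 0.187, -0.062, 0.123 and -0.058. Pairing by number, which the block assumes, was therefore not seen at day 7. Of the single values, 2 reached the smallest p, and 1 to 2 did with 1 library left out. The cause of these shifts was not tested. Of 80 called genes given with values, 43 were called in every alternative run and 57 without each library in turn; none changed sign. The replicate block removed the calls of ZIC1 and BCOR and no other among them. Depth limits genes under 1 CPM most.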

Other observations

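The 13 mitochondrially encoded mRNAs all had a difference above 0 at day 0, with a median of 0.26 log2, and 0 were called without the block and 1 with it. The summed mitochondrial share of counts was 1.35% ± 0.337 (SD, n = 4) in WT and 1.48% ± 0.567 (SD, n = 4) in KO (exact two-sided permutation p 0.686). TUBB2A and TUBB2B, near-identical beta tubulin genes, summed to 453, 593, 410 and 472 CPM in WT, 717, 923, 890 and 719 in KO and 961, 794, 655 and 652 in HET. Every KO and HET sum lay above every WT sum, and this pair was chosen after its values were seen.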
